A study of Homo sapiens with 18 samples.

Results

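The genes described here are the protein-coding genes of human chromosome 19 whose symbol is ZNF followed by a digit, which name classical zinc finger proteins. They were taken by chromosome, gene type and symbol from the count tables, without any measured value. Of 295 ZNF-numbered genes of chromosome 19, 249 were protein-coding and were kept, out of 19263 protein-coding and 57905 Ensembl genes in all. They are called members below.

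RNA was sequenced from BE(2)-m17 cells, a human neuroblastoma line, in 3 experiments named RNA1, RNA2 and RNA3. All lines carried the vector pSBbi-Hyg-APP, which expresses the amyloid precursor protein APP. The line called Puro also carried the empty vector pSBbi-Pur, and the line called ABCC1(WT) carried pSBbi-Pur-ABCC1, with a codon-optimized coding sequence of the export transporter ABCC1. Vectors were integrated with the Sleeping Beauty transposase and cells were selected with antibiotics, so within an experiment a difference between the lines cannot be told apart from the 2 separate selections. Per the study's text, RNA sequencing was done again on cells thawed from frozen stock and on lines made by a new transfection. The labels do not say which of RNA2 and RNA3 is which. Each experiment had 3 libraries of each line, from cells plated at 14000000 per well and lysed on day 4. The study's methods give weekly platings as replicates, so the p-values measure the spread between platings of 1 line. RNA1 was made with an mRNA kit and RNA2 and RNA3 with a total RNA kit. Levels are therefore compared within an experiment.

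Zinc finger proteins of the C2H2 type bind DNA with a row of fingers, each a short loop held by a zinc ion. Most of those on chromosome 19 carry a KRAB domain at the amino end, which recruits TRIM28 and through it the histone methyltransferase SETDB1, so that heterochromatin forms over the bound site. Many bind remnants of transposable elements, and the genes lie in dense clusters that grew by tandem duplication.

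Between 8866994 and 57937596 reads per library were assigned to genes, and members held 0.392 to 0.455% of them in every library. The transgene was read by 5 to 15 counts in RNA1 Puro and by 328102 to 594404 in RNA1 ABCC1(WT). It also separated the lines in RNA2, at 2 to 8 against 84990 to 148783 counts, and in RNA3, at 0 to 3 against 51035 to 58631 counts. Adrenergic neuroblastoma genes summed to 11854 to 12926 CPM, the count scaled by its library total after TMM adjustment, in RNA1 Puro and 10247 to 11820 in RNA1 ABCC1(WT). The order was the other way in RNA2, at 6637 to 8278 against 8494 to 9357 CPM, and the lines overlapped in RNA3, at 7809 to 11726 and 8984 to 10131 CPM. Markers of blood and epithelium summed to at most 0.897 CPM in RNA1, with HBB and KRT5 at 0 counts there. In RNA2 the 3 blood markers summed to 6.12 to 6.69 CPM in Puro and 1.53 to 5.03 CPM in ABCC1(WT), and epithelial ones to 4.53 to 8.58 and 2.14 to 4.17 CPM. In RNA3 the blood markers summed to 17.3 to 19.9 CPM in Puro and 10.1 to 15.4 CPM in ABCC1(WT), and epithelial ones to at most 12.9 CPM. The summed level of 4 mesenchymal markers was lower in each ABCC1(WT) library than in every Puro library of its experiment, at 73.9 to 75.3 against 56.9 to 59.9 CPM in RNA1, 58.2 to 64.1 against 41.7 to 52.3 CPM in RNA2 and 121 to 126 against 98.5 to 105 CPM in RNA3. One of the 4, COL1A1, was higher in RNA1, at 0.773 CPM in Puro and 1.33 CPM in ABCC1(WT) (log2 fold change 0.83, adjusted p = 0.0301, edgeR). The part of these markers in the results below was not tested. Reads on 356 olfactory receptor genes, which these cells should not use, served as a background. They amounted to 0.00376 to 0.00550 CPM per kb of exon in RNA1, 0.140 to 0.669 in RNA2 and 1.16 to 1.66 in RNA3.

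Most members were transcribed in RNA1. A member was counted as on where its level reached 0.5 CPM per kb and 3 times the background in each library of a line, as off where no library passed the larger of 0.05 CPM per kb and 2 times the background, and as between otherwise. By this rule 205 of 249 members (82.3%) were on, 30 between and 14 off in RNA1 Puro, and 199 were on, 33 between and 17 off in RNA1 ABCC1(WT). Of all protein-coding genes 58.9% were on in RNA1 Puro, and of the other 1199 protein-coding genes of chromosome 19 52.7%. The 260 ZNF-numbered genes of other chromosomes were on at a share close to that of members, 83.5%. The median member had 2.02 CPM per kb in RNA1 Puro, against 3.61 for the ZNF genes of other chromosomes and 1.94 for all protein-coding genes.

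**Figure D1:**
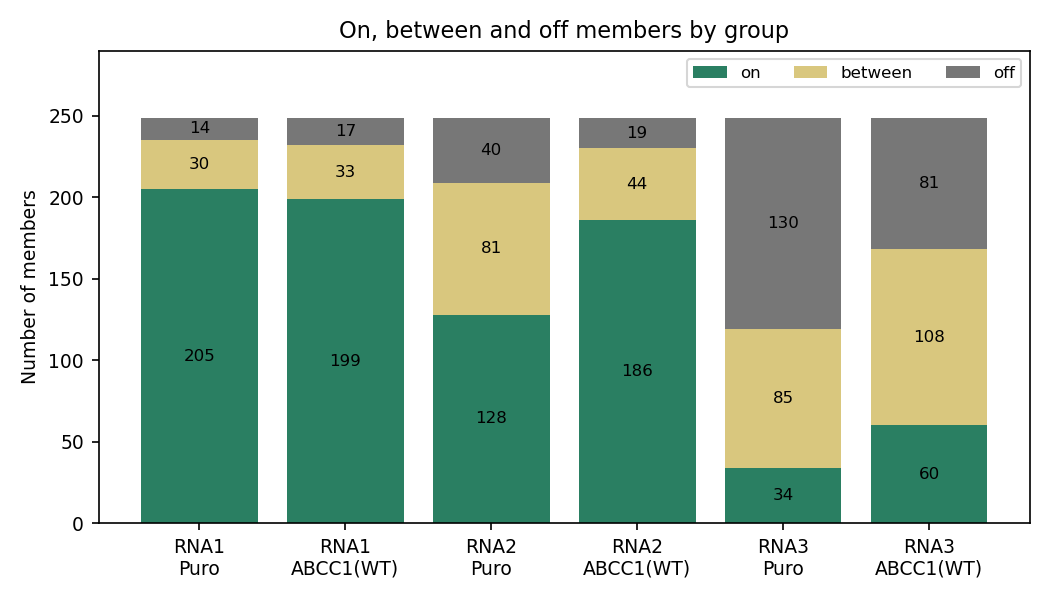
Number of members on, between and off (y axis) in the 6 groups (x axis), from 3 libraries each. In RNA1 205 and 199 members were on, whereas in RNA3, where the olfactory receptor background was over 1 CPM per kb, 34 and 60 were.

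No member switched from on to off or from off to on between the lines of any experiment. In RNA1 6 members moved from on in Puro to between in ABCC1(WT), namely ZNF491, ZNF66, ZNF681, ZNF781, ZNF677 and ZNF525, and none moved the other way. A further 3 moved from between to off, and 0 from off to between. In RNA2 128 members were on in Puro and 186 in ABCC1(WT), and all 58 that differed in being on were gained in ABCC1(WT). In RNA3 34 and 60 were on, with 27 moved from between to on and 1 from on to between. From off in Puro to between in ABCC1(WT) moved 21 in RNA2 and 49 in RNA3, and 0 moved from between to off. Other sets moved the same way: the share of protein-coding genes on was 47.7% and 55.9% in RNA2 and 31.7% and 38.7% in RNA3, and that of ZNF genes of other chromosomes was 60.8% and 78.1% in RNA2 and 30.8% and 44.6% in RNA3. The olfactory receptor background moved with these counts, at 0.583 ± 0.0907 CPM per kb in RNA2 Puro against 0.304 ± 0.149 in RNA2 ABCC1(WT), and at 1.59 ± 0.0917 against 1.26 ± 0.156 in RNA3 (SD, n = 3). It enters the rules for on and for off, and its part in these moves was not tested. The median level of members was 2.30 CPM per kb in RNA2 Puro and 2.53 in RNA2 ABCC1(WT).

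The members not transcribed were few. Off in both lines of RNA1 were 14, and all of them but ZNF728 were off in all 6 groups. Being off in RNA3 adds little, since the limit there was 2 times a background of 1.16 to 1.66 CPM per kb. By it 130 of 249 members were off in RNA3 Puro. The 14 are listed by their place. They included ZNF208, ZNF676, ZNF729, ZNF98, ZNF99, ZNF723 and ZNF728, all 7 in the cluster from ZNF101 to ZNF254 described below, and ZNF534, ZNF578, ZNF600 and ZNF665 of the cluster from ZNF175 to ZNF331. The remaining ones, ZNF625-ZNF20, ZNF709 and ZNF816-ZNF321P, share 98.2%, 92.0% and 96.3% of their 50-base words with other genes, so their low counts are uncertain. At the other end, 33 members were on in all 6 groups, among them ZNF146, ZNF536, ZNF787, ZNF302, ZNF792, ZNF574 and ZNF526.

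Among the 5 members with the highest level per kb in RNA1 Puro, none held the KRAB pattern that was searched for in the translated transcripts. ZNF146, a protein made up almost wholly of fingers, stood first at 88.6 CPM per kb. ZNF581 had 35.5, ZNF787 28.9, ZNF358 27.6 and ZNF580 23.1 CPM per kb. Of the 5 only ZNF581 passed the test in RNA1 or RNA2 and none did in RNA3. ZNF581 had 64.3, 61.7 and 58.9 CPM in the Puro libraries and 83, 78.6 and 94.3 CPM in the ABCC1(WT) libraries of RNA1 (log2 fold change 0.47 ± 0.07 (SE), adjusted p = 0.000320). ZNF580 and ZNF581 lie side by side, and 16.9% and 23.4% of their exon bases overlap other genes, so their counts are less certain. A KRAB pattern was found in 212 members and not in 35, while 2 read-through members had no coding transcript. Off in RNA1 Puro were 13 of the 212 members with the pattern, 0 of the 35 without it, and 1 of the 2 without a coding transcript.

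In RNA1 members were called at about the rate of genes at large, in both directions. Of 229 members that passed the filter on low counts, 84 (36.7%) were called at an adjusted p of at most 0.05, 33 higher and 51 lower in ABCC1(WT). Among all 16995 genes tested 37.6% were called, 17.9% higher and 19.7% lower, against 14.4% and 22.3% of the members. Of the protein-coding genes tested 19.4% were higher and 21% lower. The balance turned with 1 library, since without ABCC1(WT) replicate 3 58 members were higher and 50 lower. Of the members 110 (48.0%) had a positive log2 fold change, as did 51.2% of all genes tested. In bulk RNA fewer cells with a transcript and less of it per cell cannot be told apart. The ZNF genes of other chromosomes held 64 higher and 31 lower of 234 tested. Changes were small: the median log2 fold change was 0.33 among the members called higher, and at most 0.75, and -0.44 among those called lower. Only ZNF8-ERVK3-1 passed the thresholds of the study, an adjusted p of at most 0.001 with an absolute log2 fold change of at least 1.5, which 2.11% of all genes tested did. With 1 spread shared across the 18 libraries 14 members passed, 9 higher and 5 lower. This fit, called the shared spread below, also filtered and scaled the 18 libraries together. The log2 fold changes therefore moved too, for example from 0.75 to 0.87 for ZNF296 and from -0.93 to -0.83 for ZNF677. With the olfactory receptor background as a covariate 10 passed, 2 higher and 8 lower. That background was lower in each ABCC1(WT) library than in every Puro library of RNA1, so covariate and line can hardly be told apart. The 3 libraries of one line lay wholly apart from those of the other in 116 members tested, 49 higher and 67 lower, where 24.7% and 25.7% of all genes tested did so. Called members had a median of 11.6 CPM, close to the 10.8 CPM of the members tested. Among the 194 tested members with the KRAB pattern 26 were higher and 47 lower, and among the 34 without it 7 were higher and 3 lower.

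Of the 51 members called lower, 19 lay in 1 cluster. It holds 37 members from ZNF101 to ZNF254 (chr19:19779605-24312654, GRCh37), in which 36 had the KRAB pattern and only 1 other protein-coding gene lies. All 30 members tested there had a negative log2 fold change in RNA1, from -1.03 to -0.05 with a median of -0.31, and 19 were called lower and 0 higher. The median over all genes tested was 0.01. In RNA2, 12 of 37 members tested in the cluster were positive, with a median of -0.15, and in RNA3 13 of 37, with a median of -0.14. All genes tested had medians of -0.19 and -0.09 in these experiments, and without Puro replicate 3 the cluster medians were -0.01 in both. Without ABCC1(WT) replicate 1 the cluster median in RNA3 was also -0.01, and in RNA2 it was -0.06. No member of the cluster was called by edgeR in either of these 2 experiments, and the alternative settings, DESeq2 included, called at most 1 higher and 2 lower. Under the 14 alternative settings and left-out libraries the cluster median in RNA1 stayed between -0.34 and -0.24, while the number called lower was 2 with a spread shared across all 18 libraries, 3 with the background as a covariate, and 15 to 20 under the others.

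Within this cluster ZNF66 and ZNF737 fell furthest. ZNF66 (ENSG00000160229, chr19:20959110-20991922, plus strand) had 1.91, 2.35 and 2.03 CPM in the Puro libraries and 0.973, 0.930 and 1.12 CPM in the ABCC1(WT) libraries of RNA1. The groups did not overlap (log2 fold change -1.03 ± 0.16 (SE), adjusted p = 0.000486). It also had 8.67, 6.59 and 8.09 CPM in the Puro libraries and 6.53, 5.45 and 6.36 CPM in the ABCC1(WT) libraries of RNA2. There the groups again lay apart, with a smaller difference that did not pass the test (log2 fold change -0.35 ± 0.25 (SE), adjusted p = 0.426). ZNF737 (ENSG00000237440, chr19:20718631-20748615, minus strand) had 4.64, 4.59 and 5.14 CPM in the Puro libraries and 2.55, 2.11 and 2.97 CPM in the ABCC1(WT) libraries of RNA1 (log2 fold change -0.89 ± 0.13 (SE), adjusted p = 0.000352), and its libraries overlapped in RNA2 and RNA3. Between them along the chromosome lies ZNF626, which did not follow, at 5.04 ± 0.390 and 4.55 ± 0.302 CPM (log2 fold change -0.15 ± 0.10 (SE), adjusted p = 0.283). On the outer sides both neighbours fell, ZNF486 with log2 fold change -0.47 ± 0.06 (SE), adjusted p = 0.000263 and ZNF85 with log2 fold change -0.35 ± 0.07 (SE), adjusted p = 0.00231. ZNF85 was also lower in each ABCC1(WT) library than in every Puro library of RNA2 and of RNA3, although neither difference passed the test there.

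Known repressors of transposable elements sit in the same cluster. ZNF93, which binds the 5′ end of older L1 elements, had 10.6, 11 and 11.1 CPM in the Puro libraries and 8.06, 9.30 and 7.19 CPM in the ABCC1(WT) libraries of RNA1 (log2 fold change -0.43 ± 0.09 (SE), adjusted p = 0.00503). It overlapped between the lines in RNA2. ZNF91, which binds SVA elements, was at 29.3 ± 1.47 CPM in Puro and 26.2 ± 1.03 CPM in ABCC1(WT) of RNA1, a difference that did not pass the test (log2 fold change -0.16 ± 0.06 (SE), adjusted p = 0.0540).

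**Figure D2:**
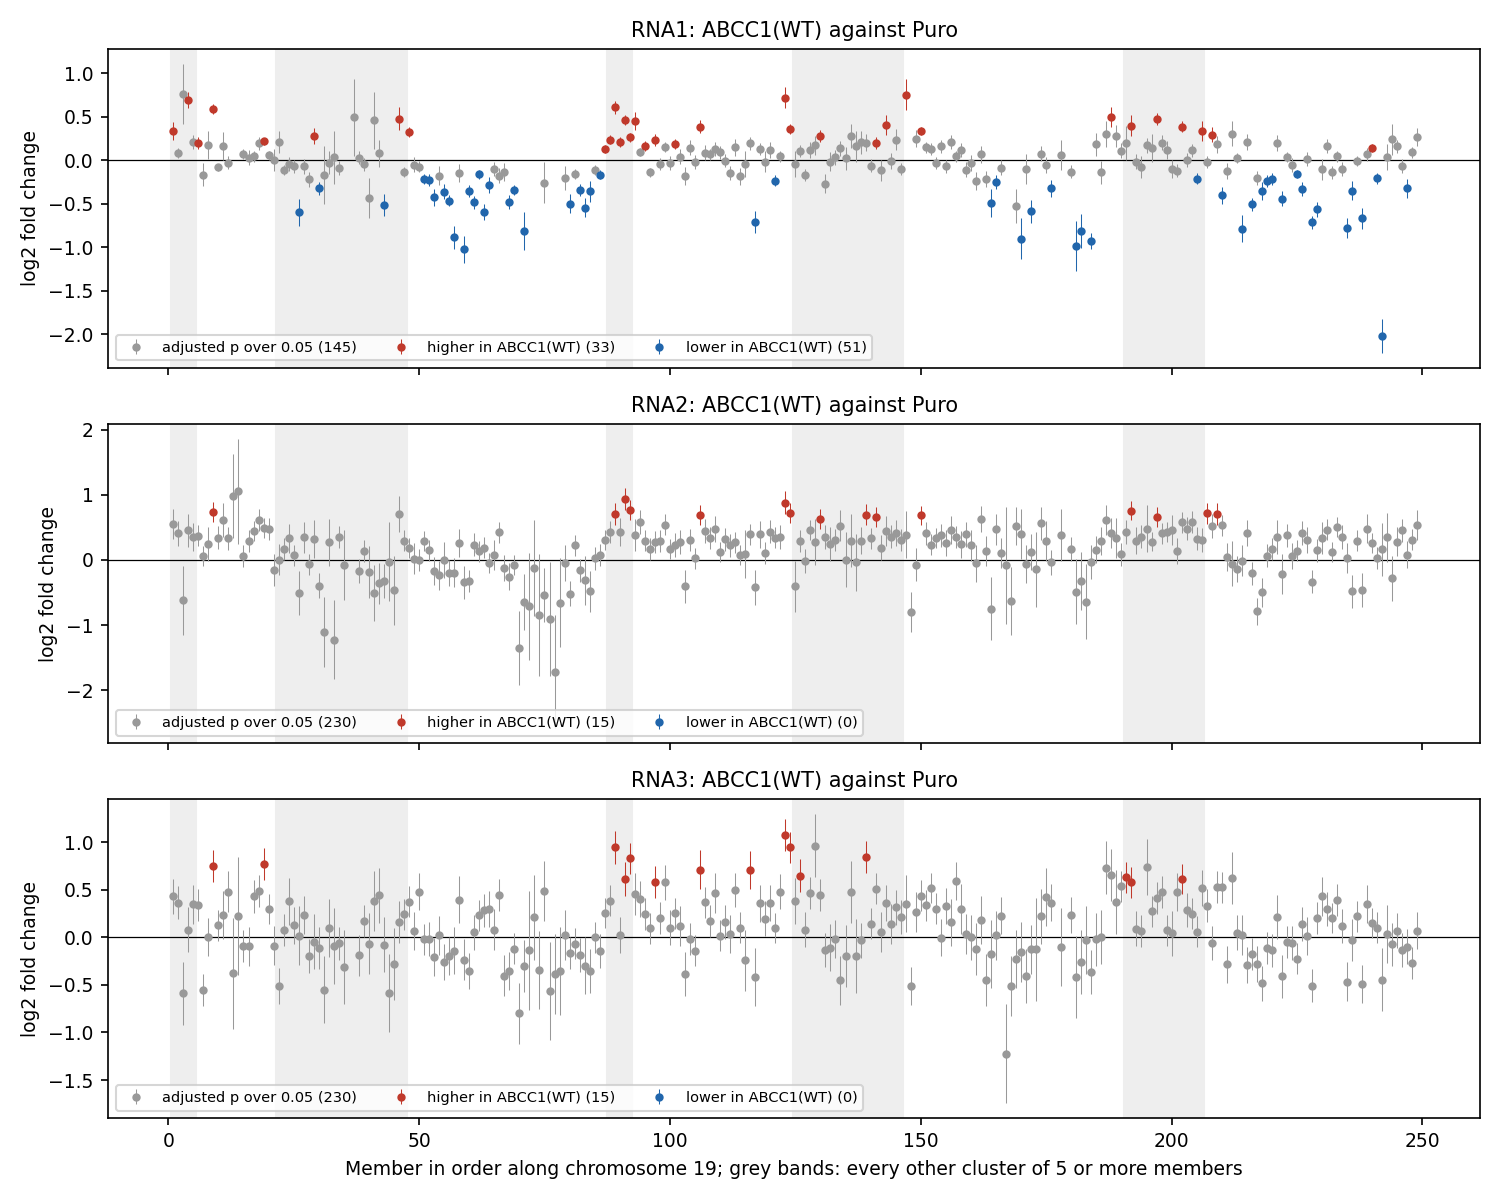
log2 fold change of ABCC1(WT) against Puro (y axis, points with SE) for each member tested, in order along chromosome 19 (x axis), in RNA1, RNA2 and RNA3. The run of blue points from member 49 to member 85 in RNA1 is the cluster from ZNF101 to ZNF254, with 19 members called lower, and the red points shortly after it in this order include the 5 members from ZNF302 to ZNF792.

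Further along the chromosome, the 5 members from ZNF302 to ZNF792 (chr19:35168544-35454953, GRCh37) moved the other way. This cluster has no other protein-coding gene in its 286.4 kb, and all 5 members carry the KRAB pattern. All 5 were called higher in RNA1, and 3 of 5 in RNA2 and in RNA3, where 17.9%, 1.25% and 2.03% of all genes tested were called higher. Every one of the 5 had a positive log2 fold change in each experiment, with medians of 0.26, 0.71 and 0.62. The clusters that begin with ZNF554, ZNF414, ZNF565, ZNF575 and ZNF628 also had medians above 0 in each experiment. For the ZNF302 to ZNF792 cluster the calls moved with the settings. With libraries left out or other settings, between 1 and 5 were called in RNA1, 0 and 4 in RNA2, and 0 and 3 in RNA3. The number positive stayed at 5 in RNA1 and RNA2 and was 3 to 5 in RNA3, where the median was 0.28 with the background as a covariate.

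ZNF181 (ENSG00000197841, chr19:35225060-35233777, plus strand) had 22.4, 21.4 and 20.1 CPM in the Puro libraries and 33.8, 34.8 and 28.9 CPM in the ABCC1(WT) libraries of RNA1 (log2 fold change 0.61 ± 0.08 (SE), adjusted p = 0.000161). It had 48.5, 41 and 58.3 CPM in the Puro libraries and 89.2, 74.3 and 78.5 CPM in the ABCC1(WT) libraries of RNA2 (log2 fold change 0.71 ± 0.17 (SE), adjusted p = 0.0332), and 15.2, 16 and 17.4 CPM in the Puro libraries and 22, 34.4 and 37 CPM in the ABCC1(WT) libraries of RNA3 (log2 fold change 0.94 ± 0.17 (SE), adjusted p = 0.000113). The lines did not overlap in any experiment. The RNA2 call of ZNF181 was lost without any library but ABCC1(WT) replicate 3 (adjusted p from 0.0522 to 0.110, edgeR). ZNF30 (ENSG00000168661, chr19:35417807-35436074, plus strand) had 13.3, 14.1 and 14.2 CPM in the Puro libraries and 19.3, 19 and 18.9 CPM in the ABCC1(WT) libraries of RNA1 (log2 fold change 0.46 ± 0.06 (SE), adjusted p = 0.000176). In RNA2 it had 13.4, 11.4 and 10.6 CPM in the Puro libraries and 20.4, 24.1 and 23 CPM in the ABCC1(WT) libraries of RNA2 (log2 fold change 0.93 ± 0.17 (SE), adjusted p = 0.00789), and it was also higher in RNA3 (log2 fold change 0.62 ± 0.18 (SE), adjusted p = 0.0362). That RNA3 call was lost without any library but Puro replicate 2 (adjusted p from 0.0503 to 0.385, edgeR). ZNF792 (ENSG00000180884, chr19:35447258-35454953, minus strand) had 40.3, 40.8 and 38.1 CPM in the Puro libraries and 48, 47.1 and 47.6 CPM in the ABCC1(WT) libraries of RNA1 (log2 fold change 0.26 ± 0.05 (SE), adjusted p = 0.00156). It was also higher in RNA2 (log2 fold change 0.77 ± 0.16 (SE), adjusted p = 0.0199) and RNA3 (log2 fold change 0.83 ± 0.16 (SE), adjusted p = 0.000470). Its effect was not shown to differ between experiments (adjusted p = 0.505, quasi-likelihood test over all 18 libraries). The remaining members of the cluster passed in RNA1 but not in RNA2 or RNA3. ZNF302 had log2 fold change 0.23 ± 0.06 (SE), adjusted p = 0.00693, and ZNF599 log2 fold change 0.21 ± 0.06 (SE), adjusted p = 0.0196.

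The 300-base promoter windows of this cluster, 250 bases before to 50 after the annotated start, are shown because its members rose side by side. They come from RefSeq on GRCh38.p14, a later build than that of the gene positions above, at chr19:34677428-34677727 for ZNF302, chr19:34733993-34734292 for ZNF181, chr19:34773166-34773465 on the minus strand for ZNF599 and chr19:34964180-34964479 on the minus strand for ZNF792. ZNF30 was not matched. Capitals mark CCGGAAG, a core bound by ETS factors, and CCAAT, the core bound by NF-Y, on either strand. The windows held 28, 28, 21 and 24 CpG.
ZNF302: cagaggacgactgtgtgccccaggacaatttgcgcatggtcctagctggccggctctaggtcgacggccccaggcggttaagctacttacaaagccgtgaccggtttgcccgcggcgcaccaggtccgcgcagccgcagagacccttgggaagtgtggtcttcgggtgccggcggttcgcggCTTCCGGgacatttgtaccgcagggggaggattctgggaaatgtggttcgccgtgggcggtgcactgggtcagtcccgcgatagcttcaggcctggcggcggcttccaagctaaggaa
ZNF181: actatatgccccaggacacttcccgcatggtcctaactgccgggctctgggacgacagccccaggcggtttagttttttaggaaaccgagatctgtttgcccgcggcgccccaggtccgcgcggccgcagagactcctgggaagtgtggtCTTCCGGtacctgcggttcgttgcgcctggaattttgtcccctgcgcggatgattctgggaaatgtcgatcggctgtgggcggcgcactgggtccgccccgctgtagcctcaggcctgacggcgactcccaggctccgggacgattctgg
ZNF599: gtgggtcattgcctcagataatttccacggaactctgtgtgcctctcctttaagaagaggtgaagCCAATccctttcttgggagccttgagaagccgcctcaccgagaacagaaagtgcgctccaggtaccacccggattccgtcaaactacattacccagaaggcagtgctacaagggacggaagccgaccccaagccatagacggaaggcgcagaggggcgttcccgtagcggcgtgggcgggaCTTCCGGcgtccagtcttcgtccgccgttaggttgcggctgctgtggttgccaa
ZNF792: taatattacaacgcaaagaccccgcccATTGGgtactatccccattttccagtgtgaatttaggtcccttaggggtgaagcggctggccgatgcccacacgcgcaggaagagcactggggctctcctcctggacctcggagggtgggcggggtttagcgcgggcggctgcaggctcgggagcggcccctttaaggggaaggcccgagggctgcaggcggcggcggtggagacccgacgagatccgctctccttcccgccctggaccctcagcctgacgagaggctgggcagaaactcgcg

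For comparison, these are the windows of the 3 largest fallers of RNA1 after ZNF8-ERVK3-1 among members with at least 1 CPM in a line, ZNF66 (chr19:20776054-20776353, plus strand), ZNF737 (chr19:20565732-20566031, minus strand) and ZNF677 (chr19:53254774-53255073, minus strand), marked the same way. ZNF66 and ZNF737 each hold 2 CCAAT and 1 CCGGAAG match in the same order, with 9 and 8 CpG, whereas ZNF677 has 34 CpG and no CCAAT.
ZNF66: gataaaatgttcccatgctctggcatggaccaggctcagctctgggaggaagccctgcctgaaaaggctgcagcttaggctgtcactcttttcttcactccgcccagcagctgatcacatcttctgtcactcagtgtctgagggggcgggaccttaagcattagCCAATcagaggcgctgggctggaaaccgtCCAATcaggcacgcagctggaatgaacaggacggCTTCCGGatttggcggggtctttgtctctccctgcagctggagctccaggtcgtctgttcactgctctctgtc
ZNF737: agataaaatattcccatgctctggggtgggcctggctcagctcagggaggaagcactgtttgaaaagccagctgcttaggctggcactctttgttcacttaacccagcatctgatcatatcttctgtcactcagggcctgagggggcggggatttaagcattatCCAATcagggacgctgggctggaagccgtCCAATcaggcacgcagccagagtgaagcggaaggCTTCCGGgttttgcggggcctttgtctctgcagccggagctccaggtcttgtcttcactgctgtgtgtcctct
ZNF677: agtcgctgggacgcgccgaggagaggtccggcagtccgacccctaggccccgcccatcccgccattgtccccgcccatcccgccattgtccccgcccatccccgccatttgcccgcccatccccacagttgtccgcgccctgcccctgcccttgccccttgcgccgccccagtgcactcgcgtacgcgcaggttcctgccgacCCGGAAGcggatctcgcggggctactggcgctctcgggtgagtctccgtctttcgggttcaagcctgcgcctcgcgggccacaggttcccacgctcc

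These letters were counted over all matched promoters. Of 217 members with a window, 45.6% held CCGGAAG against 14.2% of 15843 windows of protein-coding genes, and 54.4% held CCAAT against 36.4%. The SP and KLF core GGGCGG was in 68.2% against 58.5%, also counted on either strand. In the cluster from ZNF101 to ZNF254 all 29 windows held CCAAT and 21 held CCGGAAG, and the median window had 10 CpG. In the other members 89 of 188 windows held CCAAT, and the median was 22 CpG. Members called lower in RNA1 had a median of 14 CpG and CCAAT in 37 of 47 windows, those called higher 24 CpG and CCAAT in 10 of 30, and those tested and not called 20 CpG and CCAAT in 63 of 129. Outside that cluster, members called lower had a median of 20.5 CpG and CCAAT in 20 of 30 windows. Whether these sequences bear on the changes was not tested.

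The other clusters are set against the 17.9% of all genes called higher and 19.7% called lower in RNA1, and their counts moved with single libraries. The 5 members from ZNF554 to ZNF77 held 2 higher and 0 lower and were all positive in RNA1, with medians of 0.33, 0.41 and 0.35 in RNA1, RNA2 and RNA3, and none was called in RNA2 or RNA3. They held 1 higher without Puro replicate 1 or 3 or ABCC1(WT) replicate 1 or 2, and 3 without ABCC1(WT) replicate 3. With the background as a covariate the RNA3 median was -0.10, with 2 of 5 positive. Of 12 tested from ZNF414 to ZNF846, 2 were higher and 0 lower, and 4 were higher without ABCC1(WT) replicate 3. Of 22 tested from ZNF653 to ZNF791, 2 were higher and 3 lower, and 0 were higher without Puro replicate 3 or ABCC1(WT) replicate 1 or 2.

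In RNA1 the 43 members from ZNF264 to ZNF446 held 17 lower and 2 higher, with a median of -0.10. The number lower was 11 without Puro replicate 2, 10 without Puro replicate 3, 4 with the background covariate and 2 with the shared spread. The number higher was 6 without ABCC1(WT) replicate 3, where the median was -0.03, and 0 without Puro replicate 1 or 3, and the median was 0.00 with the shared spread. The 34 tested from ZNF175 to ZNF331 held 8 lower and 1 higher, with a median of -0.06. They held 4 lower without Puro replicate 2, and 1 with the covariate or the shared spread, where the medians were -0.01 and 0.03. Without ABCC1(WT) replicate 3 they held 6 lower and 7 higher, with a median of 0.00. The 27 from ZNF565 to ZNF573 held 1 lower and 5 higher, with 10 higher without ABCC1(WT) replicate 3 and 2 without Puro replicate 2 or 3 or ABCC1(WT) replicate 2. The 22 from ZNF575 to ZNF180 held 0 lower and 3 higher. There were 8 higher without ABCC1(WT) replicate 3, 1 higher and 1 lower without Puro replicate 1 or 3, and 1 higher without ABCC1(WT) replicate 1. The 16 from ZNF628 to ZNF835, where only 6 have the KRAB pattern, held 1 lower and 4 higher, with 2 higher without Puro replicate 2 or 3. Their median of 0.13 was 0.02 without ABCC1(WT) replicate 3, with 2 lower. All 16 were positive in RNA2 and RNA3, though under other settings 15 to 16 and 8 to 16 were. There were 10 clusters of at least 5 members, parted by gaps of over 500 kb, holding 235 members, and 14 members stood outside them. Of the 22 other protein-coding genes inside the ZNF264 to ZNF446 span, 11 were tested in RNA1, with 3 lower and 0 higher.

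**Figure D3:**
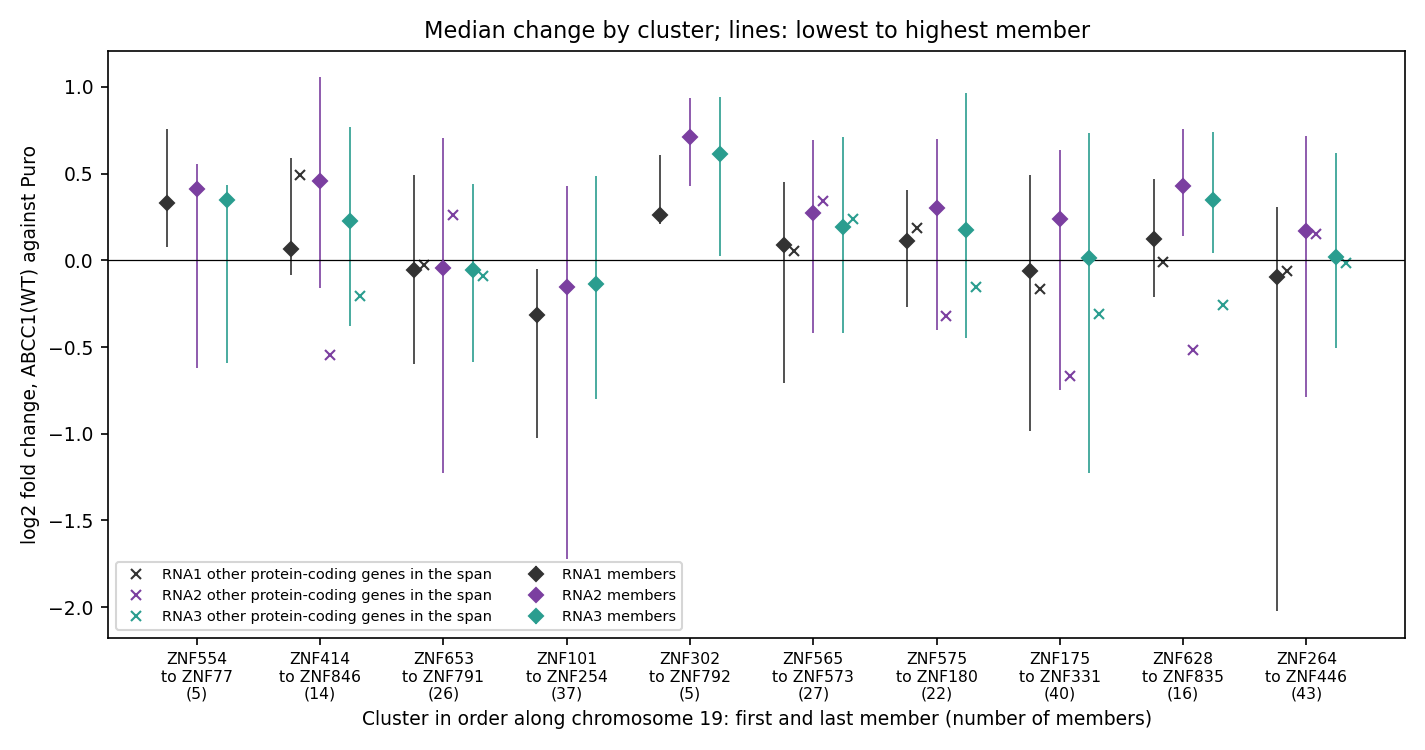
Median log2 fold change of members (diamonds, y axis; lines from the lowest to the highest member) for the 10 clusters in chromosome order (x axis), with the median of other protein-coding genes in the span (crosses). The ZNF101 to ZNF254 cluster has the lowest median in RNA1, -0.31. The ZNF302 to ZNF792 cluster is above 0 in RNA1, RNA2 and RNA3, as are the clusters that begin with ZNF554, ZNF414, ZNF565, ZNF575 and ZNF628.

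RNA2 and RNA3 called fewer members, and those called were higher in ABCC1(WT). In RNA2 15 of 245 members tested (6.12%) were higher and 0 lower, where 1.7% of all genes were called and 1.25% higher, and 2.88% of protein-coding genes were called. In edgeR 5 members were lower and 62 higher at an unadjusted p under 0.05, and DESeq2 called 33 higher and 0 lower. Other settings called up to 4 lower, that number with the shared spread. In RNA3 15 of 245 (6.12%) were higher and 0 lower, where 2.8% of all genes were called and 2.03% higher, and 4.76% of protein-coding genes were called. There 53 members were higher and 9 lower at an unadjusted p under 0.05 in edgeR, and DESeq2 called 26 higher and 0 lower. Other settings called up to 2 lower. The libraries of the lines did not overlap in 87 members higher and 12 lower in RNA2, where 13.5% and 16.4% of all genes did so, and in 57 higher and 13 lower in RNA3, where 8.59% and 10.9% did. Past the thresholds of the study were 0 members in either experiment, and 0.0117% and 0.0356% of all genes. ZNF genes of other chromosomes were also called, with 15 higher of 255 in RNA2 and 19 higher and 1 lower of 255 in RNA3. The median member stood at a log2 fold change of 0.26 in RNA2 and 0.08 in RNA3, while protein-coding genes had medians of 0.06 and -0.02 and all genes tested -0.19 and -0.09. DESeq2's size factors in place of TMM moved the RNA2 medians to 0.37 for members and -0.08 for all genes. A fit to protein-coding genes alone moved them to 0.12 for members and -0.08 for protein-coding genes. Members with a positive log2 fold change numbered 176 (71.8%) in RNA2 and 149 (60.8%) in RNA3, where 54.2% and 48.1% of protein-coding genes and 40.7% and 41.6% of all genes had one. The lower olfactory receptor background of ABCC1(WT) moved with both differences. With that background as a covariate 0 members were called in RNA2 and 2 in RNA3. As in RNA1, the background of each ABCC1(WT) library lay below that of every Puro library. The covariate can thus hardly be told apart from the line, and the lost calls do not show what the background did. The part of the background in the rises was not tested. In RNA2 the calls also rested on single libraries, since without Puro replicate 3 or without ABCC1(WT) replicate 2 no member was called. In RNA3 7 to 30 members were called with 1 library left out. There were 8 without Puro replicate 1 or 3 and 7 without ABCC1(WT) replicate 2 or 3, but 30 without Puro replicate 2 and 27 without ABCC1(WT) replicate 1.

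In all 3 experiments 8 of 228 members tested in each were called higher, 3.51%, where 1.22% of the 16689 genes tested in each were. They are ZNF558, ZNF181, ZNF30, ZNF792, ZNF420, ZNF574, ZNF526 and ZNF579. Not one was called lower in all 3, where 0.138% of genes were. In edgeR 1 member was lower at an unadjusted p under 0.05 in all 3, and DESeq2 called 0. No member was called in opposite directions in different experiments. Of the 33 members called higher in RNA1, 33 were positive in RNA2 and 31 in RNA3. Of the 51 called lower, 21 were positive in RNA2 and 14 in RNA3. The 8 became 0 without RNA2 Puro replicate 3, without RNA2 ABCC1(WT) replicate 2 or with the background covariate, and numbered 5 to 12 without a library of RNA3, 12 of them without Puro replicate 2.

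ZNF574 and ZNF526 are neighbours in the order of members and neither holds the KRAB pattern. ZNF574 (ENSG00000105732, chr19:42572629-42585701, plus strand), with 18 fingers, had 51.4, 47.2 and 44.1 CPM in the Puro libraries and 70.1, 68.8 and 95.7 CPM in the ABCC1(WT) libraries of RNA1 (log2 fold change 0.72 ± 0.12 (SE), adjusted p = 0.00150). Its values were 25.1, 25.1 and 16.2 CPM in the Puro libraries and 46, 36.5 and 40.0 CPM in the ABCC1(WT) libraries of RNA2 (log2 fold change 0.88 ± 0.17 (SE), adjusted p = 0.0166). They were 33.9, 38.4 and 34.1 CPM in the Puro libraries and 62.7, 75 and 86.1 CPM in the ABCC1(WT) libraries of RNA3 (log2 fold change 1.07 ± 0.17 (SE), adjusted p = 3.67e-06). In each experiment the lowest ABCC1(WT) library lay above the highest Puro library. ZNF526 (ENSG00000167625, chr19:42724423-42732353, plus strand), in which variants have been tied to disorders of brain and eye development, had 40.3, 39.7 and 35.4 CPM in the Puro libraries and 49.2, 48.7 and 49.6 CPM in the ABCC1(WT) libraries of RNA1 (log2 fold change 0.35 ± 0.06 (SE), adjusted p = 0.000665). It had 27, 29.4 and 26.6 CPM in the Puro libraries and 56.9, 46.9 and 56.2 CPM in the ABCC1(WT) libraries of RNA3 (log2 fold change 0.95 ± 0.16 (SE), adjusted p = 3.04e-05). RNA2 lay in between (log2 fold change 0.73 ± 0.15 (SE), adjusted p = 0.0206). The next member before ZNF574, ZNF780A, was at 23.1 ± 1.42 and 23.8 ± 0.900 CPM in RNA1 and did not pass the test in any experiment.

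The promoter windows of this pair, shown since both rose in each experiment, are unlike each other in CpG, with 6 in ZNF574 (chr19:42068227-42068526, plus strand, GRCh38.p14) and 24 in ZNF526 (chr19:42220062-42220361, plus strand). ZNF526 has 2 CCAAT matches, in capitals, and ZNF574 has none.
ZNF574: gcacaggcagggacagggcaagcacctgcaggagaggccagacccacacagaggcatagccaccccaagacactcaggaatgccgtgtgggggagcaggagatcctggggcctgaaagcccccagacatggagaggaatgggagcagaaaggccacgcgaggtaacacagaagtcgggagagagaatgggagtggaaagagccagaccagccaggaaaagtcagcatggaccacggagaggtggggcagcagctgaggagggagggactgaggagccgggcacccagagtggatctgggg
ZNF526: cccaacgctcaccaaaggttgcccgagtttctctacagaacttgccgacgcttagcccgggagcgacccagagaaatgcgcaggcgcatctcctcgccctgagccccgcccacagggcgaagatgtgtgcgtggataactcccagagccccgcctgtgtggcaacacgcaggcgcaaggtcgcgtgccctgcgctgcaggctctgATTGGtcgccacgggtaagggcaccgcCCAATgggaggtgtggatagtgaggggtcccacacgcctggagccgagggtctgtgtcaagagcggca

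The other members higher in each experiment lay elsewhere on the chromosome. ZNF558, a KRAB protein that represses the mitophagy gene SPATA18 in neural progenitors, had 19.2, 18.9 and 18.8 CPM in the Puro libraries and 28, 29.5 and 28.2 CPM in the ABCC1(WT) libraries of RNA1 (log2 fold change 0.59 ± 0.05 (SE), adjusted p = 1.52e-05). It was higher by a like amount in RNA2 (log2 fold change 0.74 ± 0.16 (SE), adjusted p = 0.0231) and RNA3 (log2 fold change 0.75 ± 0.17 (SE), adjusted p = 0.00234). ZNF420, also known as Apak, a KRAB protein that holds back p53, had 27.6, 22.9 and 29.7 CPM in the Puro libraries and 43.5, 44.5 and 41.3 CPM in the ABCC1(WT) libraries of RNA2 (log2 fold change 0.69 ± 0.16 (SE), adjusted p = 0.0275). The lines also lay apart in RNA1 (log2 fold change 0.38 ± 0.08 (SE), adjusted p = 0.00246) and RNA3 (log2 fold change 0.71 ± 0.20 (SE), adjusted p = 0.0309). Its RNA2 call was lost without Puro replicate 2 or 3 or ABCC1(WT) replicate 1 or 2. Its RNA3 call was lost without Puro replicate 1 or 3 or ABCC1(WT) replicate 2 or 3 (adjusted p from 0.101 to 0.185, edgeR). ZNF579 had 44.2, 41.8 and 37.7 CPM in the Puro libraries and 48.7, 47.2 and 66.8 CPM in the ABCC1(WT) libraries of RNA1 (log2 fold change 0.40 ± 0.13 (SE), adjusted p = 0.0334), and ABCC1(WT) replicate 3 stood well above the other ABCC1(WT) libraries. Without that library its log2 fold change was 0.22 (adjusted p = 0.00325, edgeR), and without Puro replicate 1, 2 or 3 the call was lost (adjusted p = 0.0522, 0.0891 and 0.127, edgeR). It was tighter in RNA2, with 24.8, 23.6 and 23.2 CPM in the Puro libraries and 40.6, 41.4 and 38.9 CPM in the ABCC1(WT) libraries of RNA2 (log2 fold change 0.76 ± 0.15 (SE), adjusted p = 0.0164). In RNA3 ZNF579 passed as well (log2 fold change 0.58 ± 0.16 (SE), adjusted p = 0.0256), and the call was lost without Puro replicate 1 or 3 or ABCC1(WT) replicate 2 or 3 (adjusted p from 0.118 to 0.189, edgeR). ZNF234 passed in RNA2 (log2 fold change 0.70 ± 0.16 (SE), adjusted p = 0.0294) and RNA3 (log2 fold change 0.85 ± 0.17 (SE), adjusted p = 0.000437) and overlapped between the lines in RNA1. Of 14 alternative settings and left-out libraries, 8 kept its RNA2 call and 13 its RNA3 call.

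**Figure D4:**
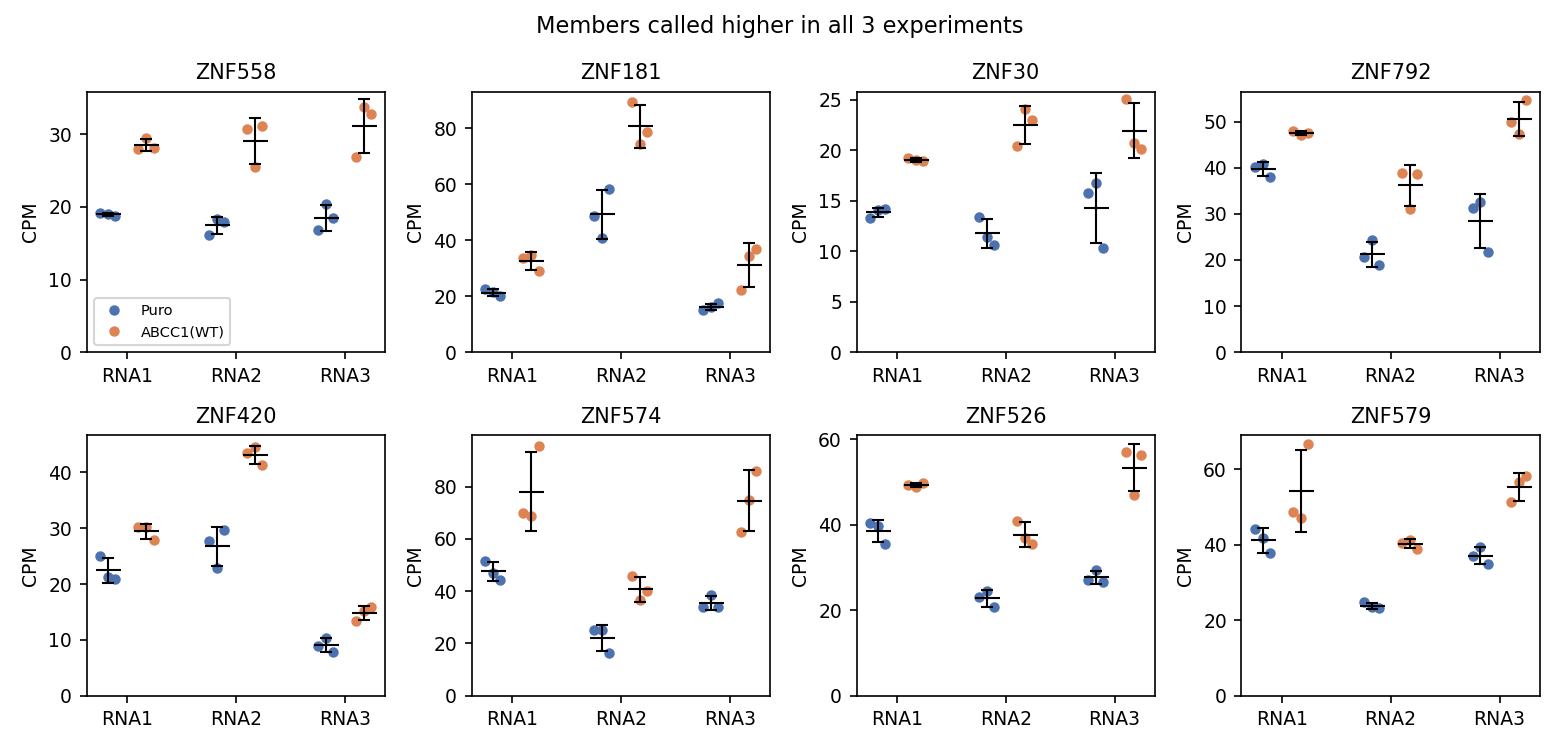
TMM-scaled CPM (y axis) of the 8 members called higher in all 3 experiments, 1 point per library, with mean and SD (n = 3), for Puro and ABCC1(WT) in RNA1, RNA2 and RNA3 (x axis). The ABCC1(WT) libraries lie above the Puro libraries for each gene in each experiment, for example at 62.7 to 86.1 against 33.9 to 38.4 CPM for ZNF574 in RNA3.

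Some members passed the test in RNA1 and not in RNA2 or RNA3. ZNF296 had 3.13, 2.31 and 2.00 CPM in the Puro libraries and 3.91, 3.75 and 5.02 CPM in the ABCC1(WT) libraries of RNA1 (log2 fold change 0.75 ± 0.17 (SE), adjusted p = 0.00631), from 63 to 291 counts, and overlapped between the lines in RNA2 and RNA3. ZNF57 had 6.71, 6.79 and 6.44 CPM in the Puro libraries and 10.2, 12.4 and 9.97 CPM in the ABCC1(WT) libraries of RNA1 (log2 fold change 0.69 ± 0.10 (SE), adjusted p = 0.000301). Its neighbour ZNF77 was at 11.7 ± 0.696 and 13.7 ± 1.07 CPM without passing the test, and ZNF556 on the other side had at most 28 counts in a library of RNA1. ZNF180 and ZNF541, the members next to ZNF296, were not called in any experiment, and ZNF541 was not tested in RNA1.

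ZNF8-ERVK3-1 (ENSG00000267216, chr19:58790332-58826563, plus strand), a read-through of ZNF8 into a retroviral element, had the largest fall. It had 64, 41 and 57 counts in the Puro libraries of RNA1 and 23, 14 and 20 in the ABCC1(WT) libraries. Scaled, these were 1.47, 1.51 and 1.81 CPM in the Puro libraries and 0.407, 0.434 and 0.345 CPM in the ABCC1(WT) libraries of RNA1 (log2 fold change -2.02 ± 0.20 (SE), adjusted p = 2.23e-05). Of its exon bases 65.4% overlap other genes and 63.9% of its 50-base words occur elsewhere, so these few counts are uncertain as to transcript. Its neighbour ZNF544 was slightly lower in RNA1 (log2 fold change -0.21 ± 0.06 (SE), adjusted p = 0.0255), and ZNF497 was at 1.59 ± 0.127 and 1.63 ± 0.165 CPM. ZNF677 (ENSG00000197928, chr19:53731577-53758151, minus strand), reported as silenced by methylation in several cancers, had 7.59, 7.27 and 7.99 CPM in the Puro libraries and 3.96, 3.78 and 4.22 CPM in the ABCC1(WT) libraries of RNA1 (log2 fold change -0.93 ± 0.09 (SE), adjusted p = 1.96e-05). Neither of the members beside it was called: ZNF665 had at most 2 counts in each library of RNA1, and ZNF845 was at 4.66 ± 0.713 and 5.27 ± 0.641 CPM (log2 fold change 0.18 ± 0.13 (SE), adjusted p = 0.309).

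The effect of ABCC1 differed between experiments in 3 of 247 members tested, 1.21%, where 1.19% of all 46225 genes tested did. They were ZNF8-ERVK3-1 (adjusted p = 0.0326, quasi-likelihood interaction test), ZNF543 (adjusted p = 0.0194) and ZNF431 (adjusted p = 0.0395), the last 2 named after their values were seen. ZNF543 had 4.87, 5.91 and 5.49 CPM in the Puro libraries and 3.84, 4.22 and 4.17 CPM in the ABCC1(WT) libraries of RNA1 (log2 fold change -0.41 ± 0.10 (SE), adjusted p = 0.0103). The order was reversed in RNA2 and RNA3, with 18, 16.2 and 16.4 CPM in the Puro libraries and 27.4, 23.1 and 22.5 CPM in the ABCC1(WT) libraries of RNA2 and 19.4, 21.2 and 18.3 CPM in the Puro libraries and 26.6, 28.6 and 29.8 CPM in the ABCC1(WT) libraries of RNA3, where neither difference passed the test by itself (log2 fold change 0.53 ± 0.16 (SE), adjusted p = 0.0777, and log2 fold change 0.53 ± 0.16 (SE), adjusted p = 0.0584). ZNF431 fell from 14.7 ± 0.283 to 9.79 ± 1.20 CPM in RNA1 (log2 fold change -0.60 ± 0.09 (SE), adjusted p = 0.000472) and was at 18.1 ± 1.16 and 22 ± 2.69 CPM in RNA3.

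**Figure D5:**
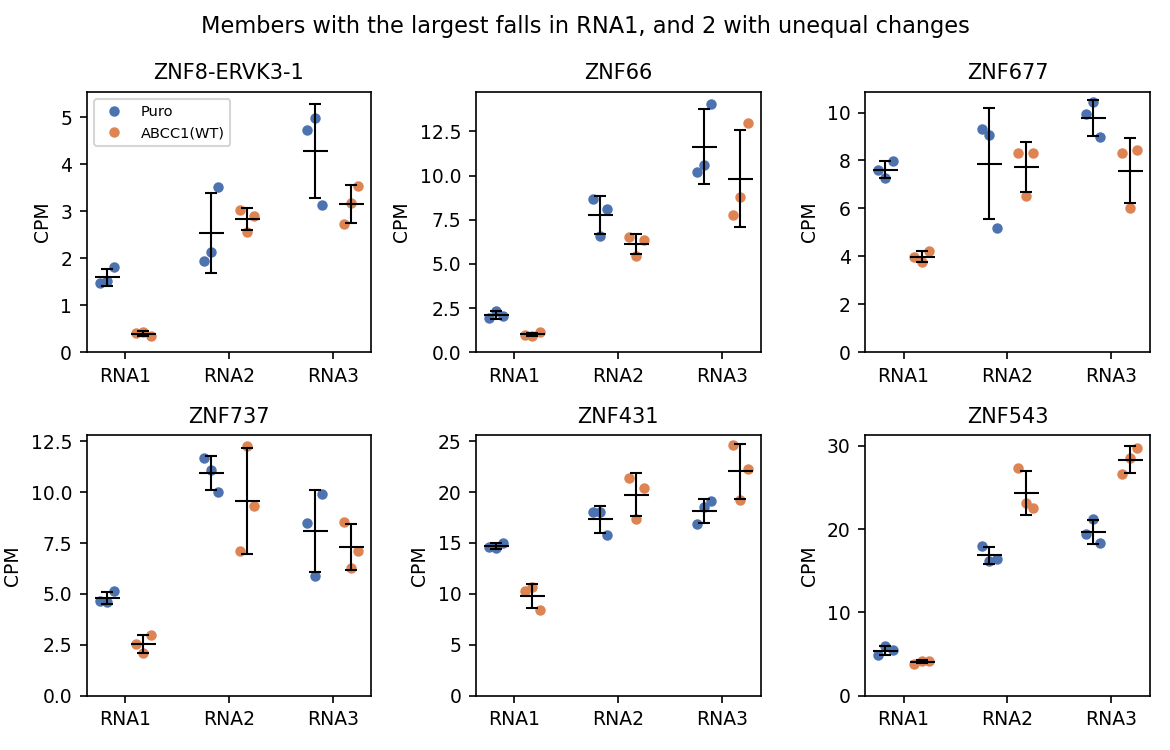
TMM-scaled CPM (y axis) of the 4 members with the largest falls in RNA1 among those with at least 1 CPM in a line, and of ZNF431 and ZNF543, 1 point per library with mean and SD (n = 3), in RNA1, RNA2 and RNA3 (x axis). For ZNF8-ERVK3-1, ZNF66, ZNF677 and ZNF737 the ABCC1(WT) libraries lie below the Puro libraries in RNA1, whereas for ZNF543 they lie below in RNA1 and above in RNA2 and RNA3.

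Other members with known roles changed little. ZNF274, which brings SETDB1 to the 3′ ends of zinc finger genes, had 43.6, 45.3 and 43.9 CPM in the Puro libraries and 48.2, 50.3 and 47.8 CPM in the ABCC1(WT) libraries of RNA1 (log2 fold change 0.14 ± 0.05 (SE), adjusted p = 0.0371). ZNF536, a repressor of neuronal differentiation genes, was on in all 6 groups and was slightly lower in RNA1, at 95.3 ± 2.92 and 84.8 ± 4.67 CPM (log2 fold change -0.17 ± 0.05 (SE), adjusted p = 0.0211). ZNF417 and ZNF587, near-identical repressors of HERV-K, did not pass in any experiment. ZNF417 had log2 fold change -0.10 ± 0.08 (SE), adjusted p = 0.361 in RNA1 and ZNF587 had log2 fold change 0.05 ± 0.06 (SE), adjusted p = 0.602, and they share 40.1% and 20.2% of their 50-base words with other genes. ZNF331, an imprinted gene, and ZNF382, a repressor of growth genes, likewise did not pass, with RNA1 log2 fold changes of 0.11 and -0.04.

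The partners that KRAB zinc finger proteins need were present in every group. TRIM28, the co-repressor bound by the KRAB domain, had 329 ± 3.71 CPM in Puro and 329 ± 34.2 CPM in ABCC1(WT) of RNA1 (log2 fold change 0.00 ± 0.06 (SE), adjusted p = 0.996). SETDB1, which methylates histone H3 at lysine 9, had 167 ± 5.64 and 192 ± 7.31 CPM (log2 fold change 0.20 ± 0.04 (SE), adjusted p = 0.00414). In RNA2 and RNA3 neither passed the test. SETDB1 was nevertheless higher in each ABCC1(WT) library than in every Puro library of both. Its log2 fold change was 0.58 ± 0.18 (SE), adjusted p = 0.0859 in RNA2 and 0.42 ± 0.18 (SE), adjusted p = 0.209 in RNA3. TRIM28 had log2 fold changes of 0.36 and -0.31 there. Of 28 genes of this machinery and of silent chromatin, 27 were matched and tested. In RNA1, where 37.6% of all genes were called, 5 were higher and 6 lower, among the latter CBX5, which binds the methylated histone (log2 fold change -0.36 ± 0.05 (SE), adjusted p = 0.000150), and the DNA methyltransferase DNMT1 (-0.26 ± 0.04 (SE), adjusted p = 0.000426). In RNA2, where edgeR called 1.7% of all genes and 7243 of 34091 had an unadjusted p under 0.05, it called 0 of the 27, with 12 at an unadjusted p under 0.05, and DESeq2 called 8. In RNA3, where 2.8% of all genes were called, 3 were higher, namely MORC2 (0.88 ± 0.17 (SE), adjusted p = 0.000459), ATF7IP (0.80 ± 0.18 (SE), adjusted p = 0.00339) and FAM208A (0.63 ± 0.17 (SE), adjusted p = 0.0180), which take part in silencing by SETDB1 and the HUSH complex, and 0 were lower. SETDB1, MPHOSPH8 and PPHLN1 of the same list were not called there. In RNA1 FAM208A was called higher (0.21 ± 0.05 (SE), adjusted p = 0.00551), and MORC2 (-0.13) and ATF7IP (-0.03) were not called. The median log2 fold change of the 27 was -0.03, 0.36 and 0.25 in the 3 experiments.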

How the data were processed

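RNA was sequenced from 18 libraries. The deposited values are raw counts per Ensembl gene, made by the authors with featureCounts of Subread 2.0.0 from STAR 2.7.3a alignments to GRCh37, after bcl2fastq 2.18. No strand setting is given in the sources used here, so reads of overlapping and antisense genes cannot be parted. Counts were tested per experiment with edgeR 4.0.16 (R 4.3.3, limma 3.58.1), using the robust quasi-likelihood test, TMM scaling and filterByExpr with a count minimum of 10. Benjamini-Hochberg adjustment covered all genes tested, and a gene was called at an adjusted p of at most 0.05. DESeq2 1.42.0 was an alternative. A joint fit, with filter, TMM scaling and spread over all 18 libraries, tested whether effects differed between experiments. CPM values use TMM-scaled totals and are given per kb of exon where genes are compared. The tests were checked on simulated counts.

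Named members were the 4 largest changes per direction and experiment among called members with at least 1 CPM in a line, up to 6 called alike in all 3 experiments, the 5 highest in RNA1 Puro, neighbours of the RNA1 members named for size, and a fixed list with known roles. ZNF543, ZNF431 and the 6 members that moved from on to between in RNA1 were named after their values were seen. Members and lists were chosen with earlier results of these data known. KRAB patterns and fingers were searched in the longest reading frame of GENCODE transcripts. The share of 50-base words found in other genes came from the same transcripts. Promoter windows are from RefSeq, GRCh38.p14, for 217 of 249 members, and were not converted to GRCh37. Totals of 8866994 to 57937596 reads set the precision of each library. No molecular identifiers were used, so replicate spread, not counting error, was tested. Columns of no sample numbered 0. The level of 1 marker gene is not reported here.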

Additional observations from a re-analysis of the deposited data

Results flagged for a closer look

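The interaction test over all 18 libraries found an ABCC1 effect that differed between experiments in 3 members, 1.21% of those tested, against 1.19% of all genes tested. For ZNF543 the adjusted p was 0.0194, with log2 fold changes of -0.41, 0.53 and 0.53 in RNA1, RNA2 and RNA3. RNA2 minus RNA1 was 0.85 (adjusted p = 0.0305, edgeR) and RNA3 minus RNA1 was 0.91 (adjusted p = 0.0212, edgeR). For ZNF8-ERVK3-1 the adjusted p was 0.0326, with log2 fold changes of -2.02, 0.16 and -0.44, and the difference between RNA2 and RNA1 was 2.09 (adjusted p = 0.0136, edgeR). For ZNF431 the adjusted p was 0.0395, with log2 fold changes of -0.60, 0.19 and 0.28, and the difference between RNA3 and RNA1 was 0.85 (adjusted p = 0.0299, edgeR). The kit differed between RNA1 and the other experiments, and kit and experiment cannot be told apart here.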

How the results depend on the processing

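The number of members called in RNA1, 84, was 14 with the shared spread, a fit that also filtered and scaled the 18 libraries together. It was 10 with the olfactory receptor background as a covariate and 58 to 108 with 1 library left out. In RNA2, where 15 were called, it was 0 with the covariate, 33 by DESeq2, 41 with the shared spread and 0 to 17 with 1 library left out. In RNA3, also with 15, it was 27 when each library needed at least 10 counts, 2 with the covariate, 28 when fitted to protein-coding genes alone, 26 by DESeq2, 30 with the shared spread and 7 to 30 with 1 library left out. The 8 members higher in all 3 experiments became 0 with the covariate and 0 to 12 with 1 library left out. When a member had to exceed 5 times the background to be on, 73 were on in RNA2 Puro, 10 in RNA3 Puro and 22 in RNA3 ABCC1(WT). With calls limited to members on in a line, an alternative chosen after seeing the data, 77, 15 and 12 were called in RNA1, RNA2 and RNA3. The background covariate followed the line in every experiment, so calls lost with it do not show what the background did. The causes were not tested.

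Libraries of the same number did not deviate together. Correlations of their deviations from the group means ran from -0.14 to 0.10, so the libraries share only a number. With the replicate block 67, 16 and 26 members were called in RNA1, RNA2 and RNA3, 8 were higher in all 3, and 1 member passed the interaction test in place of 3. The log2 fold changes of the 15 members named for size or for their calls in all 3 experiments kept their sign under these settings, and those of the other named members were not recomputed. The RNA1 balance of 33 higher and 51 lower turned to 58 and 50 without ABCC1(WT) replicate 3. It turned to 9 and 5 with the shared spread, where the scaling was shared as well. RNA2 and RNA3 had a background of up to 1.66 CPM per kb, below which a level cannot be read as transcription.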
